A study of Mus musculus with 4 samples.

Results

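The 38 genes described here encode the machinery that copies the genome in S phase, and they were taken from the arrays as every spot, control spots aside, whose gene name was one of the 38 names. They were read by 51 probes of 60 bases, out of 39429 probes for 30107 named genes or transcripts on the array design. A single probe read 27 of them, 2 probes read 9, and 3 probes read Tk1 and Pole. The study compared mouse tissue and culture with 1-colour Agilent arrays, and its title concerns acetylcholine made outside neurons and Lgr5-positive stem cells. The 4 samples came from wild type C57/BL6 mice, with 1 array for each: whole intestine, crypt, and cultures named y-organoid and o-organoid. Both organoids are labelled as crypt-villus organoids, epithelial structures grown from crypts. The labels used here give no meaning for the letters y and o, no age, no treatment and no count of animals or cultures, and o-organoid RNA was labelled from 40 ng while 20 ng was used for each other sample.

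Before S phase, the helicase loaders Cdc6 and Cdt1 place the ring of Mcm2 to Mcm7 on origins. The kinase Cdc7, Mcm10 and the GINS complex then help turn the ring into a working helicase, and polymerase alpha with its primase lays down primers that polymerases delta and epsilon extend behind the clamp Pcna. In the gut, this machinery is known from the dividing cells of the crypt, whereas most cells of the villus have left the cell cycle. Many of these genes are textbook targets of E2F factors, which switch genes on as a cell passes from G1 to S.

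Levels are log2 intensities relative to the 75th percentile of each array, and each gene was read by its brightest probe. A level of one gene was not set against that of another, since probes differ in brightness. With no replicates there is no test, standard error or p-value, and a difference compares 2 arrays. Repeated spots of 1 probe gave a technical SD of 0.127 for a difference between crypt and intestine, 0.132 between y-organoid and crypt, and 0.119 both between o-organoid and crypt and between the organoids. Over the 4 comparisons, the SD was 0.205 to 0.242 for probes at levels below -2 and 0.084 to 0.102 for brighter ones. These SDs cover spots only, not RNA, labelling or animals. Of the spots other than controls, 51.9% to 58.7% were well above background on an array. Of the 38 genes, the intestine array had 35 above background, the crypt array 36 and each organoid array 37. The 19 pan-epithelial markers were above background on every array, as were 10 of 10 crypt base stem cell markers. Of 12 fibroblast and smooth muscle markers, the intestine array had 12 above background and each other array 1, Tagln. The intestine array also had all 8 markers of exocrine pancreas above background.

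The whole intestine array held the lowest level of nearly every replication gene. Among the 35 genes above background on all 4 arrays, intestine was the lowest array for 34 and y-organoid for 1, Rpa3. The o-organoid array was the highest for 26, y-organoid for 8 and crypt for Fen1 alone on the main scale. How often each array was lowest or highest was not counted over all genes, so the order may not be particular to these genes. Intestine stayed the lowest array for 34 of the 35 under each of the 7 alternative settings, while the number highest on o-organoid ran from 25 under quantile normalization to 33 under the scaling of the deposited value table. The distance from a gene's lowest to its highest array had a median of 1.93 on the log2 scale, with a smallest value of 0.905 and a largest of 2.83.

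**Figure D1:**
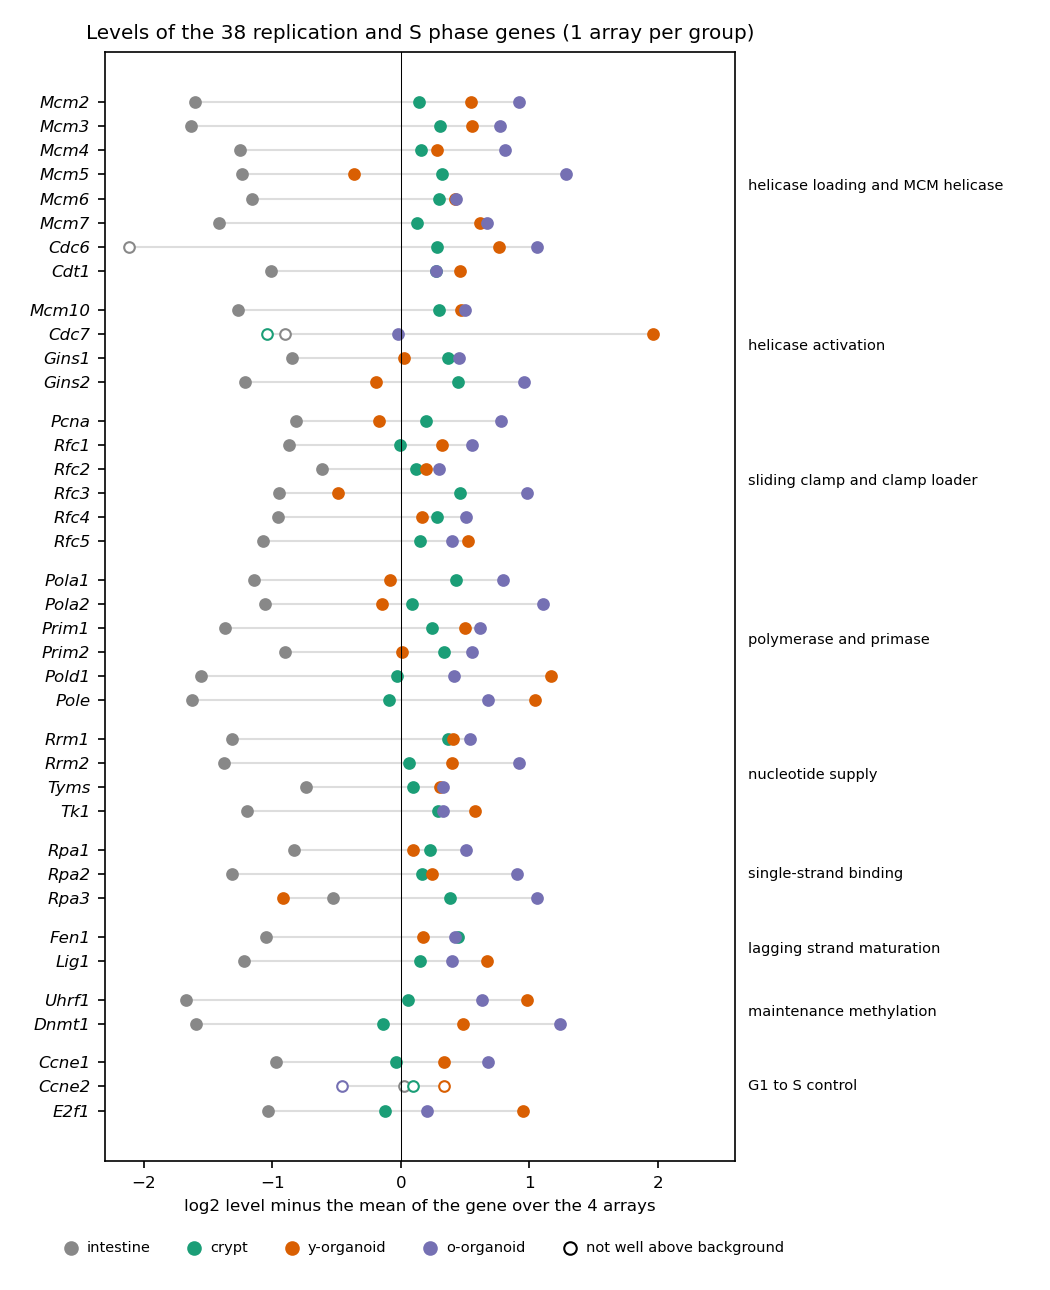
Level of each of the 38 genes on the 4 arrays (x axis, log2 level minus the gene's mean over the 4 arrays), grouped by role, with 1 point per array and open points where the probe was not well above background. The intestine point lies leftmost for 34 of the 35 genes measured on all arrays, and Rpa3, whose y-organoid point is leftmost, is the exception.

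Between crypt and intestine, every measured gene of the machinery was higher on the crypt array. Of the 36 genes above background on 1 or both arrays, 30 stood 2-fold or more higher on the crypt array and 0 lower by that much, where 6.84% of all 18199 genes measured were as much higher and 14.2% as much lower. The median difference over the 36 was 1.44 on the log2 scale, a 2.72-fold level, beside 0.06 over all genes. All 36 differences were above 0, from 0.73 for Rfc2 to 1.94 for Mcm3, beside 9795 of 18199 among all genes. Each of the 36 also lay above 0 under normexp background correction, quantile normalization, the scaling of the deposited table and centring on the pan-epithelial markers.

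All 8 genes for loading and building the helicase passed 2-fold, with a median difference of 1.55. Mcm3 stood at 0.87 on the intestine array and 2.81 on the crypt array, 3.84-fold higher. Mcm2 went from a level of -0.997 on intestine to 0.74 on crypt, and Mcm7 from 2.03 to 3.57. Of the other ring subunits, Mcm5 was 2.94-fold, Mcm6 2.75-fold and Mcm4 2.66-fold higher on the crypt array, so the log2 differences of the 6 ring subunits ran from 1.41 to 1.94. Cdc6, a helicase loader, did not clear background on intestine and stood at -2.63 on crypt. It was at least 3.62-fold higher on the main scale, with a log2 difference of 0.52 under normexp. Cdt1, its partner, was at 1.81 and 3.09, a 2.43-fold difference. Among the genes that act when the helicase is switched on, Mcm10 was 2.94-fold, Gins2 3.16-fold and Gins1 2.31-fold higher on crypt. Cdc7 was above background on neither array and has no difference.

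At the fork itself the polymerases and primase differed together. Pola1, the catalytic subunit of polymerase alpha, was at -1.39 on intestine and 0.17 on crypt. Prim1, the primase catalytic subunit, was at 0.78 and 2.39, and Pold1 and Pole, which carry the delta and epsilon polymerase activities, were 2.88-fold and 2.89-fold higher on crypt. With Pola2 at 2.22-fold and Prim2 at 2.36-fold, 6 of 6 genes passed 2-fold, although the log2 difference of the dim Pola2 was 0.23 under normexp. Fen1 and Lig1, which trim and seal the lagging strand fragments, were 2.82-fold and 2.58-fold higher. Uhrf1 and Dnmt1, which copy DNA methylation onto the new strand, were 3.31-fold and 2.73-fold higher.

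The clamp and its loader showed smaller differences, with a median of 1.11 and 4 of 6 genes past 2-fold. Pcna stood at 2.86 on intestine and 3.86 on crypt, a 2.01-fold difference at the edge of the limit. Within the loader, Rfc3 was 2.66-fold higher on crypt and Rfc2 1.66-fold, at levels of 1.63 and 2.36. Of the genes for nucleotide supply, both subunits of ribonucleotide reductase passed the limit, Rrm1 at 3.22-fold and Rrm2 at 2.71-fold, as did Tk1, thymidine kinase, at 2.79-fold. Tyms, thymidylate synthase, had low levels on every array and was 1.78-fold higher on crypt. The subunits of replication protein A, which coats single-stranded DNA, ran from 1.88-fold for Rpa3 through 2.08-fold for Rpa1 to 2.79-fold for Rpa2.

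The 6 genes that stayed under 2-fold were Rfc2, Tyms, Rfc1, E2f1, Rpa3 and Ccne1, with differences of 0.73, 0.83, 0.86, 0.90, 0.91 and 0.93. They include both measured G1 to S regulators beside 4 genes of the S phase machinery. E2f1, the transcription factor, stood at -0.78 on intestine and 0.13 on crypt, and Ccne1, cyclin E1, at 0.01 and 0.94. Ccne2, cyclin E2, was not well above background on any array.

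**Figure D2:**
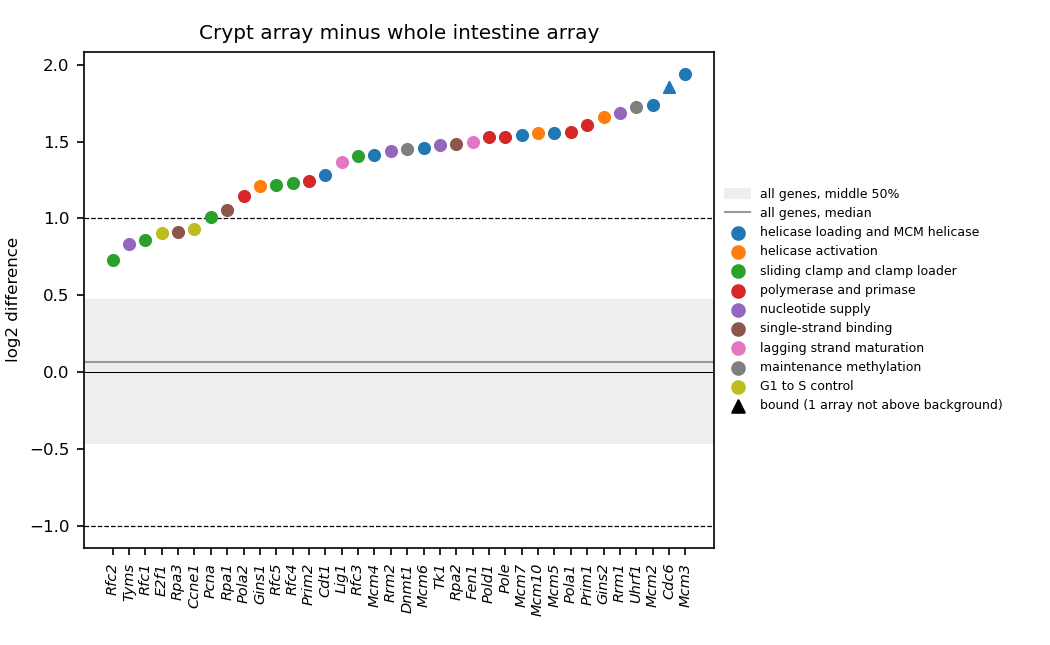
Difference between the crypt and the intestine array (y axis, log2) for the 36 genes measured, ordered by size and coloured by role, with the middle 50% of all genes shaded, a grey line at their median and dashed lines at 2-fold. All 36 points lie above 0, 30 lie above the upper dashed line, and the triangle for Cdc6 is a lower bound.

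Markers of other cell types differed between these arrays too. The summed linear signal of the 12 fibroblast and smooth muscle markers, in units of the array's 75th percentile, was 136 on intestine and 0.650 on crypt, and that of the 8 exocrine pancreas markers was 6901 and 0.813. That of the 14 immune cell markers was 127 and 33.4, that of the 7 endothelial markers 16.3 and 4.52, and that of the 19 pan-epithelial markers 1311 and 1541. In bulk RNA, a smaller share of dividing cells and less RNA of these genes per cell cannot be told apart. With both arrays centred on the median of the pan-epithelial markers, the 36 genes had a median difference of 0.94. All 36 stayed above 0 and 13 were at least 2-fold higher, beside 1.70% of all genes.

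Genes of the same pathway outside the 38 were also mostly higher on the crypt array. Of 41 other licensing and fork genes measured, 22 were at least 2-fold higher and 0 lower, with a median difference of 1.02. All genes had 6.84% as much higher and 14.2% as much lower. Top2a, the topoisomerase that untangles finished chromosomes, was 4.10-fold higher, Ticrr, which helps start origins, had a log2 difference of 1.63, and the histone chaperone genes Asf1b and Chaf1a were 3.03-fold and 3.01-fold higher. Of the 6 origin recognition genes, 5 were above background on both arrays and lay under 2-fold, from 1.01-fold for Orc4 to 1.85-fold for Orc6, an observation chosen after their values were seen. Of 19 other nucleotide supply genes, 11 were at least 2-fold higher, led by the purine synthesis gene Gart at 3.85-fold, and 1, mitochondrial thymidine kinase Tk2, was 2.39-fold lower. Of 30 other G1 to S control genes, 10 were higher and 0 lower, among them the repressor E2F genes E2f8 at 3.52-fold and E2f7 at 3.30-fold and Ccna2, cyclin A2, at 3.13-fold. Of 18 mitotic genes, 17 were higher, with a median of 1.65.

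**Figure D3:**
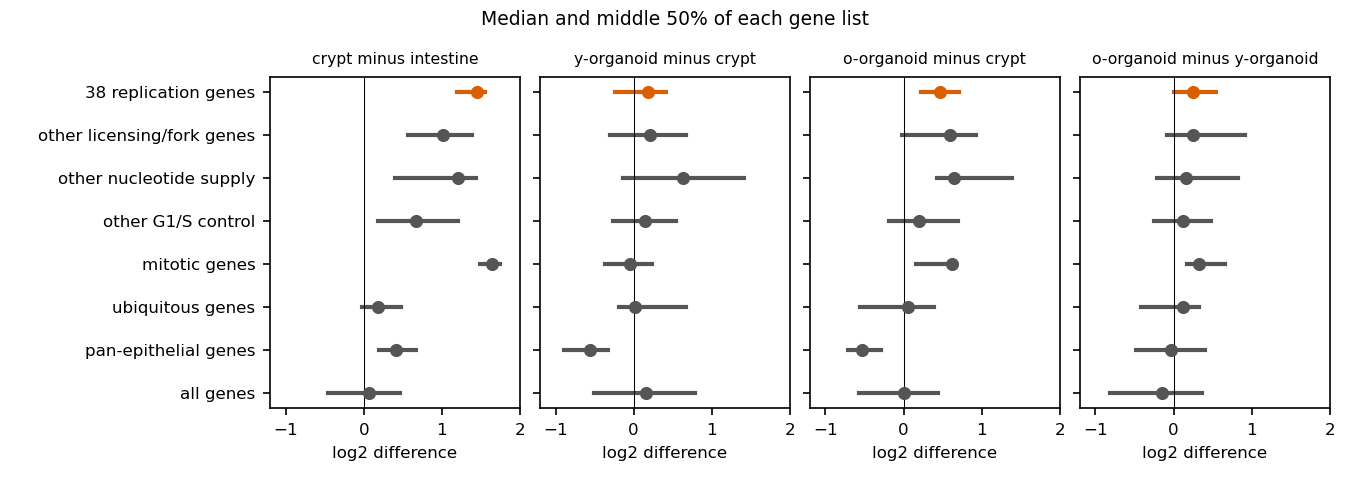
Median (point) and middle 50% (bar) of the log2 difference (x axis) for the 38 genes in orange and for other gene lists and all genes in grey, in 1 panel per comparison. In the crypt and intestine panel the 38 genes sit at 1.44, the mitotic genes at 1.65 and all genes at 0.06. In the panel of y-organoid and crypt the 38 genes, at 0.19, sit beside all genes, at 0.15. On the scale of the deposited table, not drawn here, those 2 medians are -0.33 and -0.36.

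The promoters of these genes were also read for E2F words. The RefSeq promoter table of build GRCm38.p6, which runs from 250 bases before to 50 after each start, held 39 promoters for 31 of the 38 genes. The words searched on both strands were TTTCCCGC, TTTCGCGC, TTTGCCGC and TTTGGCGC. At least 1 of them lay in 12 of the 39 promoters, or 30.8%, and in 744 of all 32851 promoters, or 2.26%. Promoters of the other licensing and fork genes held one in 12 of 41, or 29.3%. The median GC content was 61.3% in the promoters of the 38 genes and 52.7% in all promoters. The GC box GGGCGG was found in 69.2% against 35.7% of all promoters, CCAAT in 53.8% against 37.4%, and TTTGAA, the core of the CHR element, in 12.8% against 17.9%. A match shows letters in the window, not binding.

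The genes with an E2F word were Cdc6, Cdt1, Dnmt1, Lig1, Mcm3, Mcm5, Mcm6, Mcm7, Pola1, Pold1, Rfc3 and Uhrf1. All 12 were at least 2-fold higher on crypt than on intestine on the main scale, beside 6.84% of all genes. Their median difference was 1.54, with a range from 1.28 to 1.94. Cdc6 is counted there by its lower bound and was under 2-fold under normexp. The genes in the promoter table without a word had 13 of 18 past 2-fold, with a median of 1.22. Their range was 0.83 to 1.74, so the ranges overlapped from 1.28 to 1.74. With and without a word, the medians were 0.37 and 0.21 between y-organoid and crypt. They were 0.49 and 0.37 between o-organoid and crypt, and 0.13 and 0.25 between the organoids. The difference between genes with and without a word was not tested. Windows around the words follow for the 8 genes with a word before the start, to show where the letters fall and how they differ between helicase, polymerase and methylation genes. Each is written 5′ to 3′ on the strand of its gene, with the words in capitals. In Mcm5 and Mcm6 a capital run of 12 letters is a pair of words on opposite strands that overlap, and Mcm6 has a further word downstream.
Cdc6: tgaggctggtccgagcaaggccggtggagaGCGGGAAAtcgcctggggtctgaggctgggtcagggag
Mcm5: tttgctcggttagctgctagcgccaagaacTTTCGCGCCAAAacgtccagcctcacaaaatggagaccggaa
Mcm6: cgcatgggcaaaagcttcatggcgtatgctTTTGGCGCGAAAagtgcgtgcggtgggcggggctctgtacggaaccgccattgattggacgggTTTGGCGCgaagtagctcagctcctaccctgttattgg
Mcm7: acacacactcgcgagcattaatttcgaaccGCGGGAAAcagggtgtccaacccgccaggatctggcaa
Pola1: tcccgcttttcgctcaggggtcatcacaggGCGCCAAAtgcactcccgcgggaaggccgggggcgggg
Rfc3: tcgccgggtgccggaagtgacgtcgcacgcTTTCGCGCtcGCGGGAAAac
Uhrf1: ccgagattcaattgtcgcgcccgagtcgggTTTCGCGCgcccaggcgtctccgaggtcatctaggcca
Dnmt1: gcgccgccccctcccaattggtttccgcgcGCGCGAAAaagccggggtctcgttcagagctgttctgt
On GRCm38.p6 the windows lie at chr11:98907983-98908050 for Cdc6 (plus strand), chr8:75109326-75109397 for Mcm5 (plus), chr1:128359715-128359845 for Mcm6 (minus) and chr5:138172011-138172078 for Mcm7 (minus). Those of Pola1 and Rfc3 lie at chrX:93632256-93632323 (minus) and chr5:151651199-151651248 (minus), and those of Uhrf1 and Dnmt1 at chr17:56304098-56304165 (plus) and chr9:20952805-20952872 (minus). Words that lie wholly after the start are left out of the windows, except the second word of Rfc3.

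Between y-organoid and crypt, few of the genes reached 2-fold. Of the 37 measured, 4 were 2-fold or more higher on the y-organoid array and 1 lower by that much, against 18.4% and 13.3% of all 17191 genes. Their median difference was 0.19 beside 0.15 over all genes. The sign of the median depended on the scaling: it was -0.33 on the scale of the deposited table, where all genes had a median of -0.36, and 0.98 with arrays centred on pan-epithelial markers, where all genes had 0.95. Quantile normalization set the genes further from all genes, with medians of 0.40 and 0.06. Members were above 0 in 25 of 37 on the main scale, in 7 on the deposited scale and in 35 on the epithelial one.

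The 4 higher genes were Cdc7, Pold1, Pole and E2f1. Cdc7, the kinase that fires origins together with Dbf4, was below background on intestine and crypt and stood at -1.71 on y-organoid and -3.69 on o-organoid, so y-organoid was at least 7.02-fold above crypt on the main scale. That log2 difference of 2.81 was 1.43 under normexp, 2.42 under quantile normalization, 2.30 on the deposited scale and 3.60 on the epithelial one. Its other probe was above background on y-organoid alone, at -2.80, a difference from crypt of at least 1.72 on the log2 scale. Both probes thus placed y-organoid above every other array. Pold1 was at 2.72 on crypt and 3.92 on y-organoid, 2.30-fold higher, and Pole at 1.30 and 2.43, 2.20-fold higher. E2f1 stood at 0.13 on crypt, 1.21 on y-organoid and 0.46 on o-organoid, so y-organoid was the highest of the 4 arrays. Beyond these, Uhrf1 was 1.90-fold and Dnmt1 1.54-fold higher on y-organoid than on crypt.

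The 1 gene at least 2-fold lower was Rpa3, the smallest subunit of replication protein A, at 2.98 on crypt and 1.68 on y-organoid, 2.46-fold lower. Rpa1 and Rpa2 differed by -0.13 and 0.07. Rfc3 stood at -0.74 on crypt and -1.69 on y-organoid, and Mcm5 at 2.55 and 1.86, while the other MCM subunits were between 0.12 and 0.49 above crypt on the main scale and below it on the deposited one. In all, 12 genes were lower on y-organoid than on crypt on the main scale, 30 on the deposited scale and 2 on the epithelial one. The 12, by their brightest probes, were Mcm5, Gins1, Gins2, Pcna, Rfc3, Rfc4, Pola1, Pola2, Prim2, Rpa1, Rpa3 and Fen1. Other probes of Prim2 and Rfc4 gave 1.16 and 0.80, on the opposite side of 0, while that of Rpa1 gave -0.38. Other probes of Cdc6, Rfc5 and Tk1, whose brightest probes were above 0, gave -0.73, -0.92 and -0.89. The smallest differences belonged to Rrm1, at 0.04, Rpa2, Rfc2, at 0.08, Rfc4, at -0.11, and Mcm4, at 0.12.

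Between o-organoid and crypt, the genes leaned to the o-organoid side. On the main scale Dnmt1 and Pola2, 2 of 37, reached 2-fold on the higher side and 0 on the lower, against 8.51% and 13.6% of all 17196 genes. Yet 36 of 37 lay above 0, beside 8324 above and 8402 below 0 among all 17196 genes, and the median was 0.46 beside 0.00. Over genes above background on both arrays, those medians were 0.45 and -0.03. With epithelial centring 34 of the 37 reached 2-fold, beside 43.8% of all genes, and the median was 1.39 beside 0.90. Relative to all genes the median was 0.44 to 0.49 higher under normexp, quantile, deposited and pan-epithelial scaling.

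Dnmt1 was at 0.03 on crypt and 1.41 on o-organoid, 2.61-fold higher, and also stood at 0.66 on y-organoid, so both organoids were above crypt and crypt above intestine, at -1.42. Pola2 was at -3.02 on crypt and -2.004 on o-organoid, 2.03-fold higher, with a log2 difference of 0.47 under normexp. Next came Mcm5 at 1.95-fold, Rrm2 at 1.81-fold, Cdc7 at at least 1.78-fold, Cdc6 at 1.72-fold and Mcm2 at 1.71-fold. Cdt1, Fen1, Tk1 and Gins1 differed least, by 0.00, -0.02, 0.04 and 0.09, all under the technical SD of 0.119.

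The comparisons of each organoid with crypt share the crypt array, so their values are given side by side without a measure of likeness. Mitotic genes had a median of -0.05 between y-organoid and crypt, with 0 of 18 past 2-fold, and 0.62 between o-organoid and crypt, with 0 of 19. Of all genes, 18.4% were at least 2-fold higher and 13.3% lower on y-organoid, and 8.51% and 13.6% on o-organoid. Other licensing and fork genes had 9 of 42 (21.4%) higher and 0 lower on o-organoid. On y-organoid 5 of 41 (12.2%) were higher and 2 lower. The 5 were Hells, a chromatin remodeller, at 3.38-fold, Orc4 at 3.07-fold, Dbf4, the activator of Cdc7, at 2.80-fold, Recql4 at 2.71-fold and Orc1 at 2.15-fold, and the 2 lower were Slbp, the histone mRNA binding protein, at 2.68-fold and Mcm9 at 2.07-fold. On o-organoid, Orc2 led at 3.58-fold above crypt, followed by Hells at 3.29-fold, Dbf4 at 3.17-fold and Orc5 at 2.65-fold.

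Several nucleotide supply genes outside the 38 stood 2-fold or more above crypt on the organoid arrays. Of 20 such genes, 6 were at least 2-fold higher and 1 lower on y-organoid, with a median of 0.63. Among all genes, 18.4% were as much higher and 13.3% as much lower there, with a median of 0.15. On o-organoid, 7 of the 20 were higher and 0 lower, with a median of 0.65, beside 8.51%, 13.6% and 0.00 for all genes. Mthfd2, a mitochondrial enzyme of one-carbon metabolism, stood at -1.15 on intestine, -1.001 on crypt, 2.44 on y-organoid and 1.99 on o-organoid. It was thus 10.9-fold above crypt on y-organoid and 7.93-fold on o-organoid, while intestine and crypt were close. Shmt2, another enzyme of that pathway, was at 0.54, 1.67, 3.07 and 3.89 in the same order, a 4.64-fold difference between o-organoid and crypt. Samhd1, which breaks down deoxynucleotides, was the 1 gene lower, 2.30-fold on y-organoid. Of the 38 genes, Rrm1, Rrm2, Tyms and Tk1 were within 1.81-fold of crypt on both organoids.

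Of 31 other G1 to S control genes, 5 were higher and 3 lower on y-organoid, and 5 were higher and 1 lower on o-organoid. The shares higher and lower were 16.1% and 9.68% on y-organoid, beside 18.4% and 13.3% of all genes. On o-organoid they were 16.1% and 3.23%, beside 8.51% and 13.6%. Myc, a growth regulator, was at -1.55 on intestine, -0.86 on crypt, 0.97 on y-organoid and 1.44 on o-organoid, and Tfdp1, the partner of E2F factors, at -1.37, -0.31, 0.97 and 1.45. Both were thus above crypt on both organoids, by 3.55-fold and 4.93-fold for Myc and 2.43-fold and 3.39-fold for Tfdp1. Cdk6 was at least 2.64-fold higher on y-organoid and at least 2.07-fold on o-organoid. The others higher on y-organoid were Rbl2 and Ccnd2, and on o-organoid Cdk2 and E2f5. Cdkn2b, the inhibitor of Cdk4 and Cdk6, was 4.21-fold lower on y-organoid and 3.24-fold lower on o-organoid than on crypt. The other genes lower on y-organoid were E2f2 at 2.20-fold and Mycn at 2.06-fold.

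Epithelial markers moved beside these values. The median difference of the 19 pan-epithelial markers was -0.55 between y-organoid and crypt and -0.53 between o-organoid and crypt. The summed signal of the 12 enterocyte markers, in the same units as before, was 1957 on crypt, 192 on y-organoid and 422 on o-organoid. Their part in the differences of the replication genes was not tested.

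The organoids differed from each other in a handful of subunits. Of the 37 genes measured, 5 reached 2-fold on the o-organoid side and 1 on the y-organoid side, against 8.08% and 19.3% of all 17290 genes. The median was 0.25 beside -0.15 over all genes, and 28 of 37 lay above 0, beside 7065 above and 9680 below 0 among all 17290 genes. On the scale of the deposited table the median was 0.88 beside 0.43. There 15 genes were at least 2-fold higher and 1 lower, against 25.2% and 6.39% of all genes.

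Rpa3 and Cdc7 differed most, in opposite directions. Rpa3 stood at 1.68 on y-organoid and 3.66 on o-organoid, 3.94-fold higher. Mcm5 was at 1.86 and 3.51, 3.13-fold higher, and Rfc3 at -1.69 and -0.22, 2.77-fold higher. For these 3 genes y-organoid was below crypt and o-organoid above it, except that Mcm5 on y-organoid was 0.11 above crypt with epithelial centring. Pola2 was at -3.26 and -2.004, 2.38-fold higher with a log2 difference of 0.24 under normexp, and Gins2 at -0.60 and 0.55, 2.22-fold higher. Cdc7 was the 1 gene at least 2-fold lower on o-organoid, at -3.69 against -1.71, 3.94-fold lower. Its log2 difference of -1.98 was -1.30 under normexp and -1.34 on the deposited scale, and its other probe, below background on o-organoid, differed by -1.96, a bound on a larger difference. Just inside the limit, Pcna was 1.93-fold and Pola1 1.84-fold higher on o-organoid. On the negative side, Pold1 differed by -0.76, E2f1 by -0.75, Pole by -0.37 and Uhrf1 by -0.36, of which Pole and Uhrf1 were above 0 on the deposited scale.

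Subunits of 1 complex did not differ alike between the organoids. Within the MCM ring, the difference was 0.01 for Mcm6, 0.05 for Mcm7, 0.21 for Mcm3, 0.37 for Mcm2, 0.53 for Mcm4 and 1.65 for Mcm5. Within replication protein A it was 0.42 for Rpa1, 0.66 for Rpa2 and 1.98 for Rpa3. The clamp loader ran from -0.13 for Rfc5 to 1.47 for Rfc3, with Rfc2 at 0.10, Rfc1 at 0.23 and Rfc4 at 0.34. In each complex 1 subunit stood apart, and each of those 3 was read by a single probe. By brightest probes the same complexes were closer together between crypt and intestine. They ran from 1.41 to 1.94 in the MCM ring, from 0.91 to 1.48 in replication protein A and from 0.73 to 1.41 in the clamp loader. Other probes of Rpa1 and Rfc5 gave 1.65 and -0.05, outside these ranges. Those of Mcm3 and Rfc4 gave 1.80 and 1.37, inside them.

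**Figure D4:**
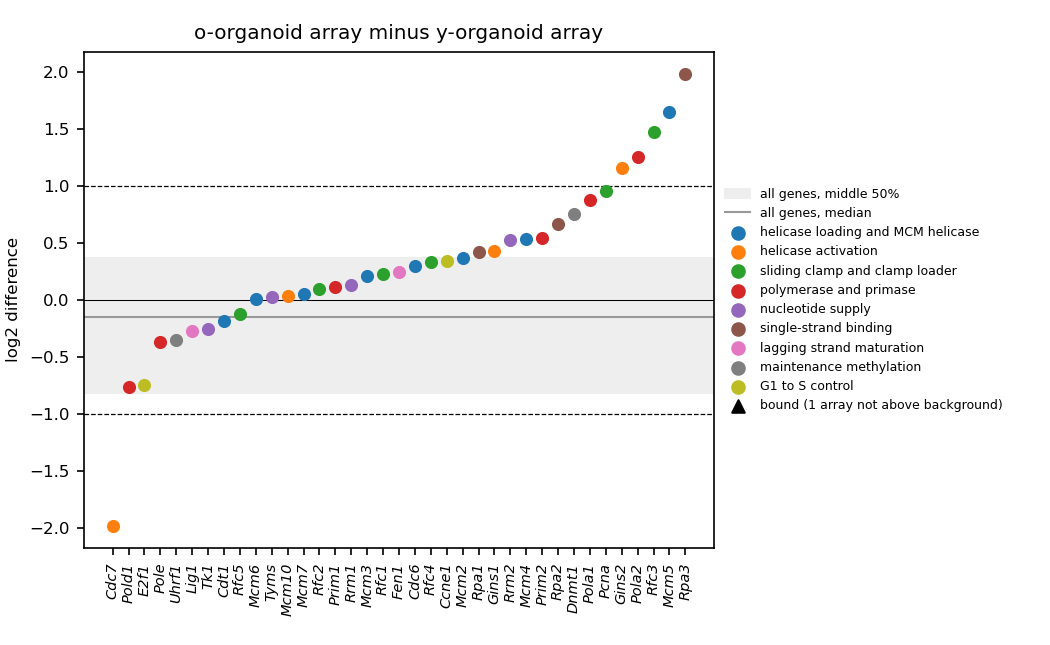
Difference between the o-organoid and the y-organoid array (y axis, log2) for the 37 genes measured, ordered by size and coloured by role, with the middle 50% of all genes shaded, a grey line at their median and dashed lines at 2-fold. Rpa3, Mcm5, Rfc3, Pola2 and Gins2 lie above the upper dashed line and Cdc7 below the lower one, with 28 points above 0.

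The probes behind the differences between the organoids are shown because a single 60-base sequence carries each value. They are given 5′ to 3′ in the sense of the transcript, in lower case throughout since no part is singled out. The Mcm5 probe starts at base 2433 of its transcript and is not printed, since it may lie past the coding sequence.
Cdc7, brightest probe: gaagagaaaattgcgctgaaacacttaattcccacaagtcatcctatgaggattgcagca
Cdc7, other probe: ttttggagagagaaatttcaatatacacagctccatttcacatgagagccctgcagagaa
Rpa3: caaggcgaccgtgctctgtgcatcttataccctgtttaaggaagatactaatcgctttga
Rfc3: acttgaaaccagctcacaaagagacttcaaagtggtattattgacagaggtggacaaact
Pola2: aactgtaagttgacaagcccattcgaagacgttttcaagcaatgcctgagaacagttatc
Gins2: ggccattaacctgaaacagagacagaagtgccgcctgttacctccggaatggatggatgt
Per the file headers, coordinates are on mm9. The Cdc7 probes lie at chr5:107398228-107398287 and chr5:107403655-107403714 on the plus strand, at separate places in the transcript. The Rpa3 probe lies across a splice junction at chr6:8206247-8206753 on the minus strand, and so does the Rfc3 probe at chr5:152448247-152450045. The Pola2 probe lies at chr19:5946484-5946543 and the Gins2 probe at chr8:123112627-123112686, both on the minus strand. Each of these probes lies within its transcript and has at least 1 reading frame with no stop codon. Their GC content was 40.0% for Rfc3 and the other Cdc7 probe, 41.7% for Pola2 and the brightest Cdc7 probe, 45.0% for Rpa3 and 51.7% for Gins2.

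Among the other licensing and fork genes, 9 of 42 were at least 2-fold higher on o-organoid than on y-organoid and 1 lower, with a median of 0.24. All genes had 8.08% as much higher and 19.3% as much lower. Slbp was 3.42-fold and Asf1b 2.75-fold higher, Pole2, an accessory subunit of polymerase epsilon, 2.59-fold and Mcm9 2.51-fold, and Orc4 was 2.29-fold lower. Of 20 other nucleotide supply genes, 0 were higher and 1, Cad, which starts pyrimidine synthesis, was 2.05-fold lower. Of 31 other G1 to S control genes, 3 were higher, E2f5 at 2.93-fold, Cdk2 at 2.13-fold and Skp2 at 2.001-fold, and 0 lower.

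Probes of 1 gene did not always give the same difference. Between crypt and intestine, 6 of 7 genes with 2 measured probes had both on the same side of 0. The exception was Rfc5, with 1.22 by its brightest probe and -0.05 by the other, which stood at -2.28 and -2.33 on the arrays. Prim2 had 1.24 and 0.12. Mcm3, whose probes overlap in sequence, had 1.94 and 1.80, and the probes of Uhrf1 1.73 and 1.11. For y-organoid and crypt only 4 of 9 genes had both probes on 1 side, for o-organoid and crypt 6 of 9 and for the organoids 6 of 10. Tk1, for example, differed between the organoids by -0.25 by its brightest probe and by 1.13 by its next. Pole, 2.20-fold higher on y-organoid than on crypt by its brightest probe, differed by 0.26 by its next, which stood at -2.72 and -2.47. For Cdc6 the probes gave 0.49 and -0.73 between y-organoid and crypt. Of the genes whose brightest probe passed 2-fold in a comparison with an organoid array, Cdc7 and Pole had a second measured probe. The others did not. Some genes passed 2-fold only by another probe, here as log2 differences. Between y-organoid and crypt these were Uhrf1 at 1.63, Prim2 at 1.16 and Ccne1 at 1.13 or more. Between o-organoid and crypt they were Rfc5 at -1.13 and Ccne1 at 1.08 or more. Between the organoids they were Tk1 and, at -1.02, Prim2, whose brightest probe gave 0.54.

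**Figure D5:**
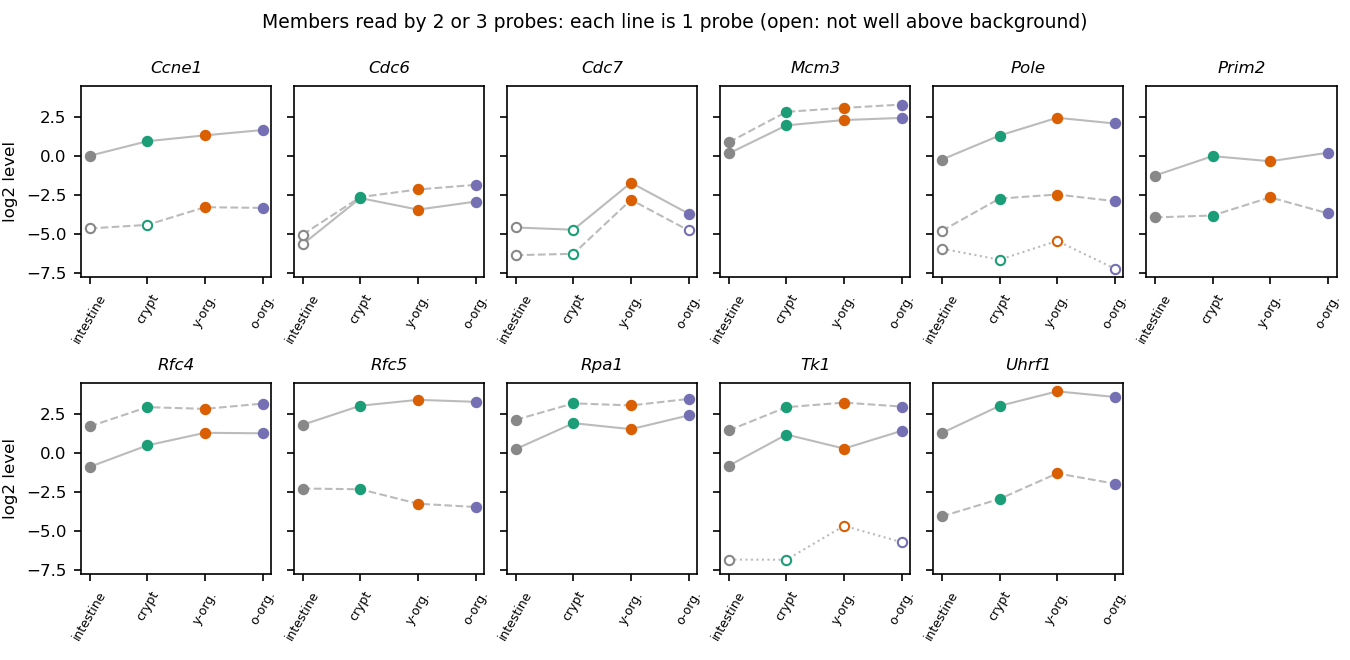
Level of every probe (y axis, log2) on the 4 arrays (x axis) for the 11 genes read by 2 or 3 probes, with 1 line per probe, line styles telling probes apart and open points where the probe was not well above background. Both probes of Cdc7 peak on y-organoid, whereas the probes of Rfc5 differ between intestine and crypt by 1.22 and -0.05.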

How the data were processed

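Per the labels' protocols, RNA of the 4 samples was amplified from low input and labelled with Cy3. Spot intensities, linear and not yet scaled between arrays, are in the scanner files that the authors deposited, from Agilent Feature Extraction 10.7.3.1, per the file headers. The value table deposited by the authors was found to be a ratio, the intensity of a spot over 1 constant per array (crypt 29.5, intestine 40.5, o-organoid 36.9, y-organoid 25.2). Its columns have a median of 1.0, with no centring of genes. The sources used here name no tool for it.

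Control and outlier spots were left out (108 to 165 outliers an array), and no spot was saturated. Spots of a probe were averaged on the log2 scale after the array's 75th percentile was subtracted (an intensity of 386 on intestine, 469 on crypt, 281 on y-organoid and 641 on o-organoid). Probes were named through the RefSeq table of GRCm38.p6: 27234 through an accession, 3576 through a symbol, 565 through a synonym, with 8054 left under the array's own name. Genes were read by their brightest probe on average. A side not above background was set to its own signal or, if higher, to the array's lowest signal that cleared background, which gives "at least" folds. Genes counted as measured were well above background on 1 or both arrays, and as higher or lower at 2-fold. Work was done in Python 3.11.15 with pandas 2.3.3 and in R 4.3.3 with limma 3.58.1 for normexp, and tested on simulated data.

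The members and the gene lists were chosen with earlier results of these data known. Every member may be named. Of other lists, up to 4 genes with the largest difference in a comparison were named, and all where a count was 5 or fewer. Orc4 and Orc6 between crypt and intestine were named after their values were seen. Alternatives were normexp (offset 50), quantile normalization, the deposited scaling, centring on pan-epithelial markers, the median over a gene's probes, no filter, a filter on both arrays, and a 1.5-fold limit.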

Additional observations from a re-analysis of the deposited data

How the results depend on the processing

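With 1 array per group, no replicate could be left out. No paired analysis was possible because each group has 1 sample. Depth is not defined for arrays, and signal over background limits Cdc6, Cdc7, Ccne2, Tyms and Pola2, whose levels were near or below background. Between crypt and intestine, the median over the members was 1.24 under normexp, 2.18 on the deposited scale and 0.94 with arrays centred on pan-epithelial markers. With that centring 13 members were at least 2-fold higher, beside 1.70% of all genes. Between y-organoid and crypt, the median was 0.40 under quantile normalization, -0.33 on the deposited scale and 0.98 with epithelial centring. There 1 member was higher on the deposited scale and 18 with epithelial centring, beside 9.15% and 47.9% of all genes. The count of lower members was 2 under quantile normalization, 5 on the deposited scale, 0 with epithelial centring and 4 at 1.5-fold. All genes had 14.7% lower under quantile normalization, 25.9% on the deposited scale and 5.37% with epithelial centring. Between o-organoid and crypt, 1 member was higher under normexp and 34 with epithelial centring, beside 4.45% and 43.8% of all genes. At 1.5-fold 13 were higher. The median was 0.59 on the deposited scale and 1.39 with epithelial centring. Between the organoids, 3 members were higher under normexp and 15 on the deposited scale, beside 4.97% and 25.2% of all genes. At 1.5-fold 9 were higher and 3 lower. The share of all genes at 1.5-fold was not counted. The median was 0.88 on the deposited scale and 0.38 with epithelial centring. The deposited and epithelial scalings shift every difference measured on both arrays alike by construction. The cause of the other shifts was not tested. No member past 2-fold changed sign under any of these settings. Relative to all genes, the median of the members between crypt and intestine lay between 1.22 and 1.38 under normexp, quantile, deposited and epithelial scaling.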

Other observations

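Markers of crypt base stem cells differed between the arrays beside the replication genes. Of the 10 markers, 6 were at least 2-fold higher and 1 lower on crypt than on intestine. Relative to crypt, 9 were higher on y-organoid and 7 on o-organoid. All genes had 6.84%, 18.4% and 8.51% as much higher in those comparisons. Lgr5, a receptor for R-spondins that names these stem cells, stood at -1.75 on intestine, -0.39 on crypt, 2.85 on y-organoid and 2.32 on o-organoid. Over the same arrays Mcm2, for comparison of the order only, stood at -0.997, 0.74, 1.15 and 1.52. The median over the stem cell markers was 1.60 between y-organoid and crypt and 1.15 between o-organoid and crypt, and that over the 38 replication genes 0.19 and 0.46, with no test of the difference.

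The promoters of the mitotic genes, which act after S phase, were searched for the same words as those of the replication genes, with no test of the difference. An E2F word lay in 1 of 18 promoters of mitotic genes and in 12 of 39 of the replication genes, while TTTGAA lay in 12 of 18 (66.7%) and in 5 of 39. CCAAT lay in 14 of 18 and 21 of 39, and the GC box in 15 of 18 and 27 of 39. Among the mitotic genes, Ndc80, a kinetochore gene, was 5.63-fold higher on crypt than on intestine, Bub1b, a spindle checkpoint kinase, 4.37-fold and Cdk1 3.92-fold. Over the 18464 probes above background on all 4 arrays, the rank correlation of probe GC content with the difference was between -0.09 and 0.07. Over the 42 of them that read members it was -0.05 between crypt and intestine and 0.27 between y-organoid and crypt. It was 0.22 between o-organoid and crypt and -0.16 between the organoids. Probes are not independent replicates.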
